A study of Mus musculus with 15 samples.

Results

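The transcription factors that set and hold B cell identity were described across naive B cells, activated B cells, and plasmablasts. They were 10 genes, *Pax5*, *Ebf1*, *Bach2*, *Spib*, *Bcl6*, *Foxo1*, *Tcf3*, *Ikzf1*, *Ikzf3*, and *Id3*, chosen by symbol from the 21669 genes with a symbol in the deposited expression table. All 10 passed the filter on low values that left 11299 genes for testing, and each was measured in every library, the lowest value being 1.81 RPKM (reads per kilobase of gene model and per 1000000 reads) for *Bcl6* in a plasmablast library.

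*Tcf3* (encoding E2A), *Ebf1*, *Pax5*, *Foxo1*, and the Ikaros family genes *Ikzf1* and *Ikzf3* act in a hierarchy in which E2A and EBF1 open the B lineage program and PAX5 commits cells to it, by activating B cell genes and silencing genes of other lineages. In mature B cells, BACH2, BCL6, PAX5, and the ETS factor SPIB oppose the plasma cell program, and the plasma cell repressor BLIMP-1 (encoded by *Prdm1*) in turn represses several of them. ID3 binds E proteins such as E2A and keeps them from DNA. EZH2 is the enzyme that places the repressive mark H3K27me3, and GSK343 is an inhibitor of its activity.

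RNA-seq was performed on wild-type female C57BL/6J mice, 6 to 9 weeks old. Naive B cells (nB) were splenic cells left after CD43 depletion, neither cultured nor treated. The other groups came from such cells after 3 days in culture with LPS, IL2, and IL5 and either DMSO as the vehicle or 2 µM GSK343, from which activated B cells (actB; B220+, GL7+, and CD138-) and plasmablasts (Pb; CD138+) were sorted. The treatment protocol and the methods give IL5 for all cultures, whereas the stimulation label of the Pb GSK343 libraries names Il6 in its place. The labels thus differ among themselves, and which of them holds was not tested. Should the Il6 label hold, GSK343 and the cytokine cannot be told apart in comparisons of Pb GSK343 with Pb DMSO, or in those built on them. The nB cells were enriched by depletion alone, and every other group was sorted after culture, so that stage and culture cannot be told apart between nB and the rest.

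Each group held 3 libraries, with 19421830 to 26307413 reads counted to genes per library. The replicates 1 and 2 of nB differed by less than the sampling noise (chi-square per degree of freedom 0.0096, against at least 3.58 for any other pair of a group) and were counted as 1 sample, so that nB had n = 2 and each cultured group n = 3. In each cultured group, replicate 2 differed more from replicates 1 and 3 than these did from each other. The defining markers were measured in each group. The summed level of 5 B cell markers was 3068 to 3162 RPKM in nB, 1643 to 1939 in actB, and 744 to 917 in Pb, while 5 plasmablast markers summed to 214 to 231, 485 to 669, and 3065 to 3396 RPKM. Among the latter, *Prdm1*, *Xbp1*, and *Jchain* were higher in actB than in nB. *Sdc1* (CD138) was lower in actB, at 0.532 to 1.16 RPKM against 5.12 to 5.22 in nB, and *Irf4* overlapped (107 to 125 and 112 to 127 RPKM). The 4 activated B cell markers summed to 30.7 to 37.9 RPKM in nB, 359 to 402.5 in actB, and 270 to 319 in Pb. Of these, *Mki67* was higher in Pb than in actB and the others were lower. The nB libraries also held RNA of other cells. The 5 measured T cell markers summed to 19.4 to 20.8 RPKM there and to at most 0.653 in any cultured library, where all 5 were under 1 RPKM and 1 was at 0 reads in each group. Likewise, 3 NK cell markers summed to 9.0 to 9.58 RPKM in nB and to at most 0.538 in culture, 7 myeloid markers to 201 to 249 RPKM and 4.33 to 19.8, and 2 erythroid markers to 30.5 to 134 and 1.29 to 18.9. The part of these cells in the differences between nB and cultured cells was not tested.

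**Figure D1:**
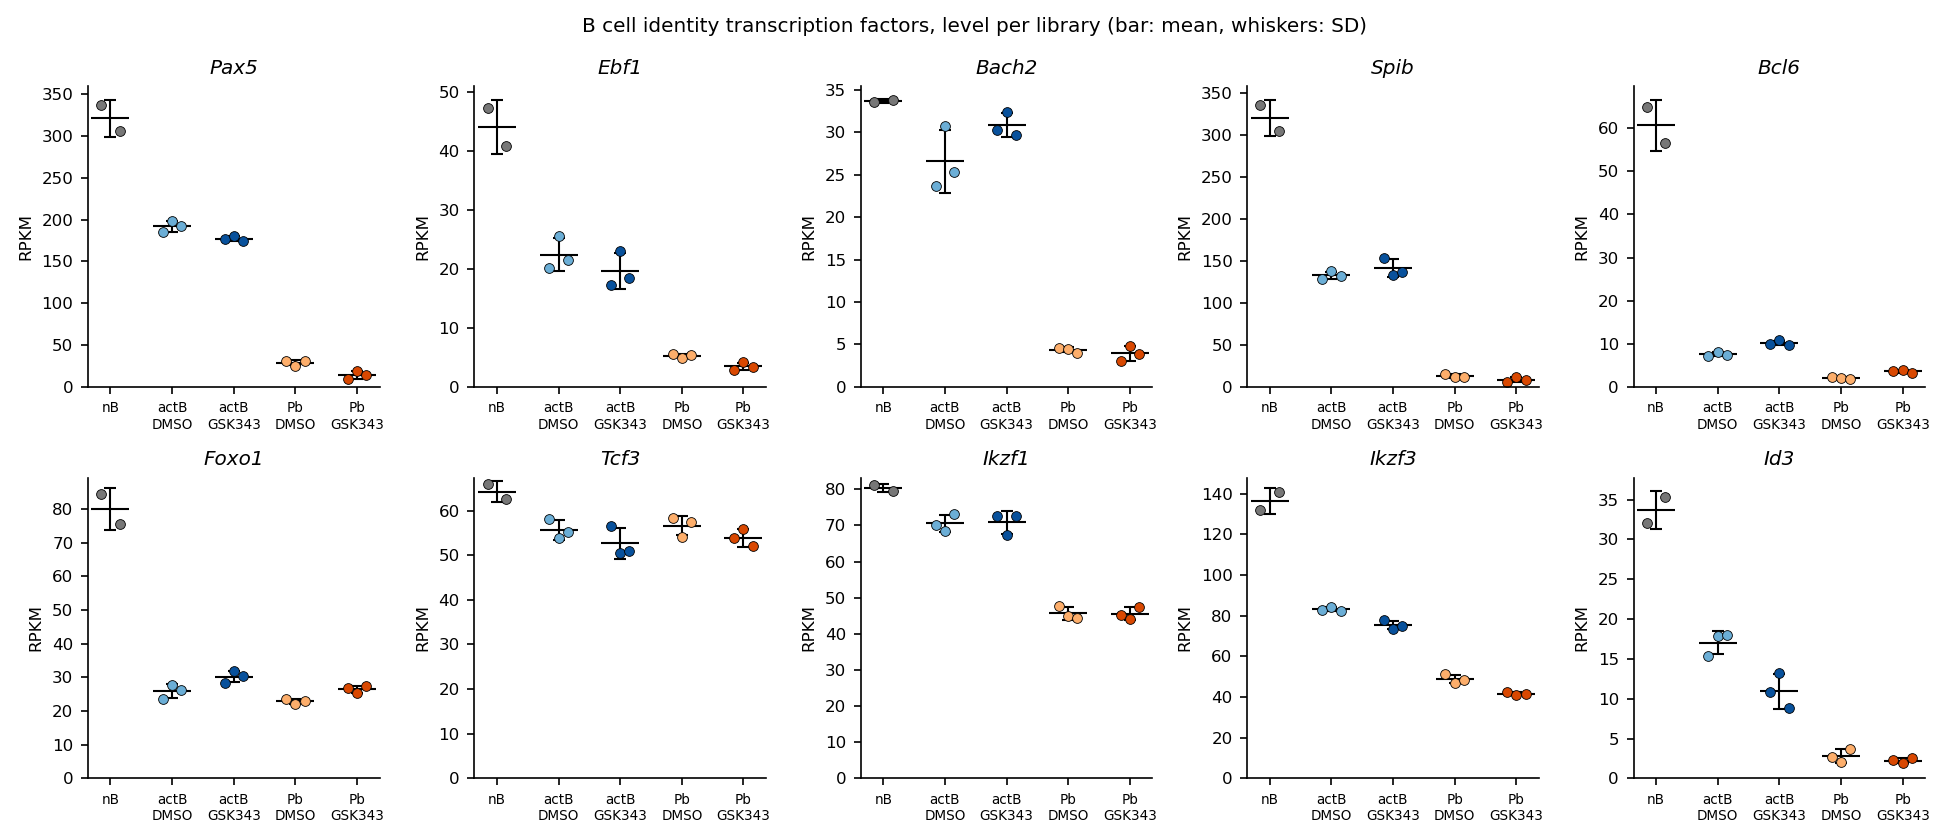
Level of each of the 10 genes in RPKM on the vertical axis (linear, from 0) in the 14 libraries, by group (points: libraries, horizontal bars: means, whiskers: SD). Most genes step down from nB to actB and to Pb, *Pax5* from a mean of 321 to 192 and 29.1 RPKM with DMSO, whereas *Tcf3* lies between 50.4 and 65.9 RPKM in every library.

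At the top of the hierarchy, *Tcf3* (chr10:79872259-79896392, minus strand, mm9) was measured at 65.9 and 62.5 RPKM in the 2 nB samples. The actB DMSO libraries held 58.1, 53.9, and 55.1 RPKM, and the Pb DMSO libraries 58.3, 54.2, and 57.5. With GSK343, *Tcf3* was at 56.6, 50.4, and 51.0 RPKM in actB and at 53.8, 56.0, and 52.0 in Pb. Each nB sample was above every cultured library, and the 4 cultured groups overlapped each neighbor in the order of their means.

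*Ebf1* (chr11:44430819-44821593, plus strand), whose product works with E2A to specify the lineage and activates *Pax5*, was at 47.4 and 40.9 RPKM in nB. It was at 20.1, 25.6, and 21.6 RPKM in actB DMSO and at 5.56, 4.97, and 5.4 RPKM in Pb DMSO. The GSK343 libraries held 17.3, 23.1, and 18.5 RPKM in actB and 2.83, 4.14, and 3.43 RPKM in Pb. The 3 stages did not overlap, the actB groups overlapped each other, and every Pb GSK343 library was below every Pb DMSO library.

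*Pax5* (chr4:44544017-44724318, minus strand), the commitment factor, was at 337 and 306 RPKM in nB. Its levels were 186, 199, and 192 RPKM in actB DMSO and 31.5, 25.2, and 30.5 RPKM in Pb DMSO. With GSK343 it was at 177, 181, and 175 RPKM in actB and at 9.28, 18.6, and 13.6 RPKM in Pb. No 2 groups overlapped, and replicate 2 was the highest of the Pb GSK343 libraries and the lowest of the Pb DMSO libraries. The gene model used for *Pax5* is 1208 bases long, while the exons of the gene in the GENCODE vM1 annotation cover 3424 bases, so that its level relative to other genes depends on the model. The same holds for *Bcl6* (3285 against 6700 bases), *Ebf1* (6100 against 9756), *Id3* (953 against 1791), *Ikzf1* (8918 against 5919), and *Ikzf3* (7271 against 8754).

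The zinc finger genes *Ikzf1* (Ikaros; chr11:11585006-11672929, plus strand) and *Ikzf3* (Aiolos; chr11:98326216-98407345, minus strand) are needed for B cell development and for restraint of receptor signaling. *Ikzf1* was at 81.1 and 79.6 RPKM in nB, at 70.2, 68.5, and 73.1 in actB DMSO, and at 47.7, 45.0, and 44.3 in Pb DMSO, and its GSK343 libraries overlapped the DMSO libraries in both cell types (67.3 to 72.7 RPKM in actB and 44.2 to 47.5 in Pb). *Ikzf3* was at 132 and 141 RPKM in nB, at 82.7, 84.2, and 82.2 in actB DMSO, and at 51.2, 47.0, and 48.3 in Pb DMSO. With GSK343, *Ikzf3* was at 77.7, 73.6, and 75.0 RPKM in actB and at 42.6, 40.8, and 41.5 in Pb, below every DMSO library of the same cell type. The Ikaros family member *Ikzf3* thus fell into 5 groups that did not overlap, and *Ikzf1* into 3.

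*Foxo1* (chr3:52072259-52154031, plus strand), a forkhead factor that is shut out of the nucleus by PI3K and AKT signaling and supports naive B cell trafficking and survival, was at 84.3 and 75.6 RPKM in nB. It was at 23.6, 27.7, and 26.1 RPKM in actB DMSO and at 23.7, 22.01, and 22.9 in Pb DMSO. In the GSK343 libraries it was at 28.4, 32.0, and 30.3 RPKM in actB and at 26.8, 25.3, and 27.3 in Pb. In both cell types all GSK343 values exceeded all DMSO values, while actB DMSO and Pb DMSO overlapped.

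*Bcl6* (chr16:23965138-23988938, minus strand), the repressor required for germinal center B cells, was at 64.9 and 56.6 RPKM in nB. It was at 7.2, 8.19, and 7.48 RPKM in actB DMSO and at 2.32, 2.1, and 1.81 RPKM in Pb DMSO. With GSK343 the values were 9.94, 10.8, and 9.81 RPKM in actB and 3.67, 3.9, and 3.12 RPKM in Pb. Its 5 groups did not overlap, and the GSK343 libraries were the higher ones in both cell types.

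*Bach2* (chr4:32325779-32673083, plus strand), a repressor of *Prdm1*, was at 33.6 and 33.9 RPKM in nB. The actB DMSO libraries held 23.7, 30.7, and 25.3 RPKM and the actB GSK343 libraries 30.3, 32.4, and 29.7, both below nB and overlapping each other. In Pb, *Bach2* was at 4.58, 4.51, and 4.03 RPKM with DMSO and at 3.07, 4.83, and 3.88 with GSK343. The Pb groups overlapped each other and lay far under all other libraries.

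*Spib* (chr7:51781365-51787441, minus strand), an ETS factor that opposes plasma cell formation, was at 336 and 306 RPKM in nB. It was at 129, 138, and 132 RPKM in actB DMSO and at 15.3, 11.6, and 11.3 RPKM in Pb DMSO. With GSK343 it was at 154, 133, and 137 RPKM in actB and at 6.24, 12.1, and 7.82 RPKM in Pb. Of the Pb GSK343 libraries, replicates 1 and 3 were below all Pb DMSO libraries and replicate 2 lay among them.

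*Id3* (chr4:135699412-135701670, plus strand), the E protein inhibitor, was at 32.0 and 35.4 RPKM in nB. Its levels were 15.3, 17.8, and 17.99 RPKM in actB DMSO, 10.8, 13.2, and 8.79 RPKM in actB GSK343, 2.7, 2.0, and 3.73 RPKM in Pb DMSO, and 2.25, 1.89, and 2.54 RPKM in Pb GSK343. The groups did not overlap apart from those of Pb.

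Promoters of the genes were read from RefSeq (build GRCm38.p6) as the 250 bases before each annotated start, which matched 9 of the 10 genes with 12 promoters in all (*Ikzf1*, *Ebf1*, and *Bcl6* have a pair each). They were searched on both strands for letters close to the known sites of factors in this circuit. The EBF motif, which reads the same on both strands, was found in 1 of the 12 and in 0.779% of the 32851 promoters of the table. The BCL6 motif TTCCTNGAA was found in 1 of the 12 and in 1.31% of all, and the BLIMP-1 motif in 1 of the 12 and in 0.941% of all. The PU.1 motif GAGGAA, of the ETS class to which SPIB belongs, was found in 3 of the 12 (*Id3*, an *Ebf1*, and a *Bcl6* promoter) and in 23.3% of all. The E-box CAGGTG (17.2% of all) and the FOXO motif TGTTTAC (3.17% of all) were found in none of the 12, and no matches of different motifs overlapped. The 3 promoters with a rarer motif are shown, since each pairs a gene described here with the motif of a factor of the same circuit, with the match in capitals. They are *Foxo1* (chr3:52268087-52268336, plus strand), with the EBF motif 92 to 83 bases before the start, the more distal *Ebf1* promoter (chr11:44617850-44618099, plus strand), with the BLIMP-1 motif on the other strand 155 to 146 bases before the start, and a *Bcl6* promoter (chr16:23981284-23981533, minus strand), with the motif of its own product 168 to 160 bases before the start.
Foxo1: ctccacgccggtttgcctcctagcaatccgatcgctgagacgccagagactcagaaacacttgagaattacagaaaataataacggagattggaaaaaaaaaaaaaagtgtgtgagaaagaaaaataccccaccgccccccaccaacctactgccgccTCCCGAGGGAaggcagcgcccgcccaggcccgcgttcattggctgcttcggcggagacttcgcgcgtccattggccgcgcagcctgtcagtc
Ebf1: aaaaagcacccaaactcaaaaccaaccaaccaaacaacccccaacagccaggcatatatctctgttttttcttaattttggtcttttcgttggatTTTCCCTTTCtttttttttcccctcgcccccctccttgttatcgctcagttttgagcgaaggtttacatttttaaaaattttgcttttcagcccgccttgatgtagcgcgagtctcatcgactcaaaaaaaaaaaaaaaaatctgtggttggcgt
Bcl6: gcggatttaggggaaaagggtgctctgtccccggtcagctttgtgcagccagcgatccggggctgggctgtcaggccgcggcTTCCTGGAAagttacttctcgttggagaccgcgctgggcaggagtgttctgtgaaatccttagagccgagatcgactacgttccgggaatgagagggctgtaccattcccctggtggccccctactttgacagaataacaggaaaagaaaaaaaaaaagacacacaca

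Activated B cells were first compared with naive B cells. All 10 genes were lower in actB DMSO than in nB and passed the test (limma, adjusted p under 0.05, as throughout), where 36.3% of all genes tested were called lower and 77.2% were called in either direction. Their median log2 fold change was -0.86, against 0.053 over all genes. The groups did not overlap for any of the 10, with every actB library below every nB sample, which held for 39.2% of all genes. *Bcl6* fell the most, by 2.95 ± 0.11 (SE) on the log2 scale, 7.74-fold (adjusted p = 1.4e-10). *Foxo1* fell by 1.62 ± 0.08 and *Spib* by 1.27 ± 0.2, to 32.3% and 41.5% of their nB means.

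In a middle range were *Id3* (log2 fold change -0.97 ± 0.21), *Ebf1* (-0.97 ± 0.15), *Pax5* (-0.74 ± 0.2), and *Ikzf3* (-0.71 ± 0.05). *Tcf3* (-0.2 ± 0.06) and *Ikzf1* (-0.19 ± 0.05) fell the least, and were still at 86.8% and 87.8% of their nB means. *Bach2* fell by 0.35 ± 0.15 with an adjusted p of 0.0466, which was above 0.05 without the merged nB sample (0.133), without nB replicate 3 (0.146), without actB DMSO replicate 1 (0.143), and without replicate 3 (0.106), as well as with a pseudocount of 0.05 (0.0531) and with no filter (0.0637). The call for *Tcf3* was lost without the merged nB sample (adjusted p = 0.0742). As these are bulk samples, fewer cells of a type and less RNA per cell cannot be told apart. The values are also shares of the reads counted in a library. The paper describes a growing RNA content with differentiation, so a lower share need not mean less RNA of a gene per cell. The amount per cell was not tested.

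Plasmablasts were then compared with activated B cells of the same cultures. In Pb DMSO, 9 of the 10 genes were lower than in actB DMSO, where 42.4% of all genes tested were called lower and 69.7% were called in either direction. The median log2 fold change of the 10 was -1.89 and that of all genes -0.116. *Spib* fell by 3.38 ± 0.18, 10.4-fold (adjusted p = 6.8e-09), and 0.212% of all genes had a lower value. *Pax5* fell by 2.72 ± 0.18 (6.59-fold), *Id3* by 2.54 ± 0.19 (5.79-fold), *Bach2* by 2.53 ± 0.13 (5.78-fold), *Ebf1* by 2.02 ± 0.14 (4.07-fold), and *Bcl6* by 1.76 ± 0.1 (3.39-fold). The 6 genes with the larger changes were joined by *Ikzf3* (-0.76 ± 0.04) and *Ikzf1* (-0.63 ± 0.05).

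*Foxo1* and *Tcf3* differed from the rest in this step. *Foxo1* fell by 0.17 ± 0.07 (adjusted p = 0.0385) with overlapping libraries, and *Tcf3* was not called (log2 fold change 0.024 ± 0.055, adjusted p = 0.714). Since the median of all genes was itself at -0.116 and moved to -0.0048 with median scaling, both calls depend on the scaling: with median scaling *Foxo1* was at -0.061 (adjusted p = 0.459) and *Tcf3* was called higher, at 0.14 (adjusted p = 0.0426). The call for *Foxo1* was also lost without actB DMSO replicate 2 (-0.12, adjusted p = 0.145), without actB DMSO replicate 3 (0.0938), without Pb DMSO replicate 2 (0.119), and without Pb DMSO replicate 3 (0.0747), and with no filter (0.0529), only the groups compared (0.0673), or edgeR (0.146). For 8 of the 10 genes every Pb library was below every actB library, which held for 43.3% of all genes.

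Over both steps, all 10 genes were lower in Pb DMSO than in nB, where 41.1% of all genes tested were called lower and 80.6% in either direction. *Bcl6* (log2 fold change -4.71 ± 0.11) and *Spib* (-4.64 ± 0.2) were lowest, at 3.42% and 3.96% of their nB means. *Id3* (8.34%), *Pax5* (9.04%), *Ebf1* (12.03%), and *Bach2* (12.98%) followed. *Foxo1* (28.6%), *Ikzf3* (35.8%), *Ikzf1* (56.8%), and *Tcf3* (88.2%) kept the larger shares. The call for *Tcf3* (-0.18 ± 0.06, adjusted p = 0.0168) was lost without the merged nB sample (0.116) and without Pb DMSO replicate 2 (0.0583). The genes thus reached these levels along different courses, with most of the fall of *Foxo1* and *Bcl6* on the log2 scale between nB and actB and most of that of *Pax5*, *Bach2*, *Spib*, *Ebf1*, *Id3*, and *Ikzf1* between actB and Pb.

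**Figure D2:**
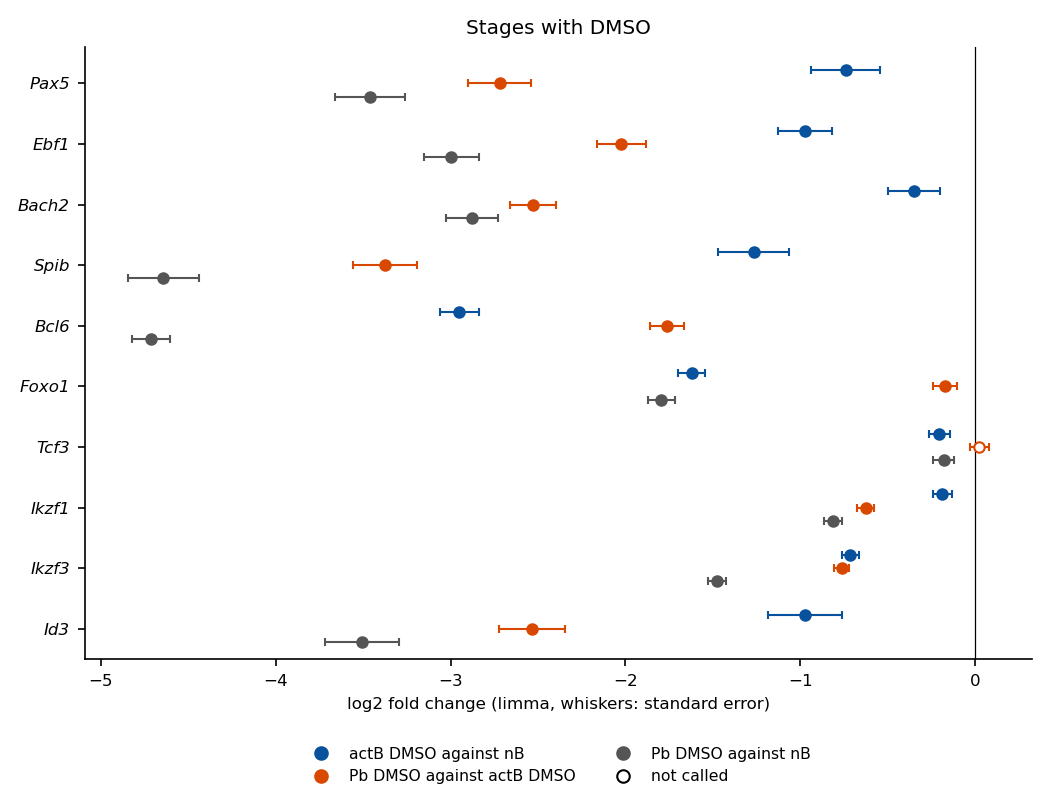
Log2 fold change of the 10 genes (horizontal axis, limma estimate ± SE) between the stages with DMSO, with filled points for adjusted p under 0.05 and open points otherwise. *Bcl6* and *Foxo1* lie farthest left in actB against nB (-2.95 and -1.62), *Spib* and *Pax5* in Pb against actB (-3.38 and -2.72), and *Tcf3* in Pb against actB is the open point at 0.024.

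With GSK343 in both groups, the same 9 genes were lower in Pb than in actB, again without *Tcf3* (0.036 ± 0.055). Of all genes tested, 44.2% were called lower and 70.5% in either direction. The log2 fold changes were -4.03 ± 0.18 for *Spib*, -3.71 ± 0.18 for *Pax5*, -2.92 ± 0.13 for *Bach2*, -2.42 ± 0.14 for *Ebf1*, -2.16 ± 0.19 for *Id3*, and -1.46 ± 0.1 for *Bcl6*. *Ikzf3* (-0.85 ± 0.04) and *Ikzf1* (-0.63 ± 0.05) also fell. *Foxo1* was at -0.19 ± 0.07 (adjusted p = 0.0244), a call that with median scaling was lost (-0.051), as all genes had a median of -0.142, and *Tcf3* was then called higher (0.18). The call for *Foxo1* was also lost without actB GSK343 replicate 2 (adjusted p = 0.0921), without actB GSK343 replicate 3 (0.0569), and without Pb GSK343 replicate 2 (0.0891).

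The effect of EZH2 inhibition was asked in each cell type. In actB, GSK343 raised *Bcl6* and lowered *Id3*, and the other 8 genes were not called, where 10.4% of all genes tested were called (8.2% higher and 2.16% lower). *Bcl6* rose by 0.41 ± 0.1 on the log2 scale, 1.33-fold (adjusted p = 0.0227), and was higher in each of the 3 numbered pairs (by 0.45, 0.39, and 0.38). The call for *Bcl6* was lost without any of 5 libraries, namely DMSO replicates 1 (adjusted p = 0.0868) and 3 (0.0737) and GSK343 replicates 1 (0.0543), 2 (0.0598), and 3 (0.0536), and kept without DMSO replicate 2. *Id3* was lower by 0.65 ± 0.19 (1.56-fold, adjusted p = 0.0499) and in each pair (-0.5, -0.43, and -1.01). Its call was lost with the replicate number as a block (adjusted p = 0.0557) and without DMSO replicates 1 (0.0812), 2 (0.0922), or 3 (0.138) or GSK343 replicates 1 (0.111) or 3 (0.182), and with a pseudocount of 0.05, no filter, quantile normalization, or only the groups compared (0.0508 to 0.087).

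Other genes moved in actB by less. *Foxo1* was at 0.23 ± 0.07 (adjusted p = 0.0545) and *Ikzf3* at -0.14 ± 0.04 (adjusted p = 0.0666), each in the same direction in 3 of 3 pairs, and both passed in the fit blocked on replicate number (0.0362 and 0.0156). *Ikzf3* also passed with median scaling (adjusted p = 0.0241) and in edgeR (0.029). *Bach2* (0.22 ± 0.13, adjusted p = 0.344), *Ebf1* (-0.2 ± 0.14, 0.433), *Pax5* (-0.12 ± 0.18, 0.763), and *Spib* (0.085 ± 0.18, 0.84) were not called, although edgeR blocked on replicate number called *Ebf1* (-0.24, adjusted p = 0.0337). *Tcf3* (-0.082 ± 0.055) and *Ikzf1* (0.0051 ± 0.048) were not called either. The GSK343 and DMSO libraries did not overlap for *Bcl6* and *Foxo1*, which were higher (18.3% of all genes), nor for *Pax5*, *Ikzf3*, and *Id3*, which were lower (7.52% of all genes). In these libraries the plasmablast markers summed to 549 to 669 RPKM with GSK343 and 485 to 522 with DMSO, and the myeloid markers to 13.9 to 19.8 and 10.03 to 11.97 RPKM. The part of either in these differences was not tested.

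In Pb, *Pax5*, *Ebf1*, and *Ikzf3* were lower and *Bcl6* higher with GSK343 than with DMSO, where 12.9% of all genes tested were called (7.9% higher and 5.0% lower). *Pax5* fell by 1.11 ± 0.18, 2.15-fold (adjusted p = 0.0022), and was lower in each numbered pair (-1.73, -0.44, and -1.15), with 0.177% of all genes at a lower value. *Bcl6* rose by 0.71 ± 0.1, 1.64-fold (adjusted p = 0.00095), and was higher in each pair (0.61, 0.82, and 0.71). *Ikzf3* fell by 0.23 ± 0.04, 1.17-fold (adjusted p = 0.0061), in each pair by 0.2 to 0.26. *Ebf1* fell by 0.6 ± 0.14, 1.51-fold (adjusted p = 0.0154), in each pair (-0.92, -0.25, and -0.62). The call for *Ebf1* was lost without DMSO replicate 1 (0.058) or 3 (0.0502) and without GSK343 replicate 1 (0.0667) or 3 (0.0547).

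*Spib* was at -0.57 ± 0.18 (adjusted p = 0.0619), lower in 2 of 3 pairs (-1.26, 0.06, and -0.51), and passed the test without Pb GSK343 replicate 2, at -0.83 (adjusted p = 0.0024), and in edgeR blocked on replicate number, at -0.56 (adjusted p = 0.0256). *Foxo1* was at 0.21 ± 0.07 (adjusted p = 0.0654), higher in each pair, and passed with the replicate number as a block (0.0427). *Id3* (-0.28 ± 0.19, adjusted p = 0.399), *Bach2* (-0.17 ± 0.13, 0.475), *Tcf3* (-0.07 ± 0.06, 0.471), and *Ikzf1* (-0.0026 ± 0.048, 0.985) were not called. The libraries did not overlap for *Bcl6* and *Foxo1*, which were higher (18.8% of all genes), nor for *Pax5*, *Ebf1*, and *Ikzf3*, which were lower (15.3% of all genes).

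Markers of B cells followed the order of some of these values across the Pb GSK343 libraries, but not across the Pb DMSO libraries. The 5 B cell markers summed to 892 to 917 RPKM with DMSO and to 744, 876, and 809 RPKM in GSK343 replicates 1, 2, and 3. *Pax5*, *Ebf1*, *Spib*, and *Bach2* were likewise lowest in replicate 1 and highest in replicate 2 of the GSK343 libraries. With DMSO the marker sum was highest in replicate 2 (917 RPKM), where *Pax5* (25.2 RPKM) and *Ebf1* (4.97 RPKM) were lowest. All 5 markers are among the genes activated by PAX5 and EBF1 whose counts follow. The plasmablast markers summed to 3065 to 3215 RPKM with DMSO and 3129 to 3396 with GSK343. Among them, *Sdc1*, the gene of the sort marker CD138, was at 28.8 to 30.4 RPKM with DMSO and 53.3 to 58.8 with GSK343, and *Irf4* at 358 to 391 and 300.3 to 323 RPKM. The part of the makeup of the sorted cells in the fall of *Pax5* and *Ebf1* was not tested.

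**Figure D3:**
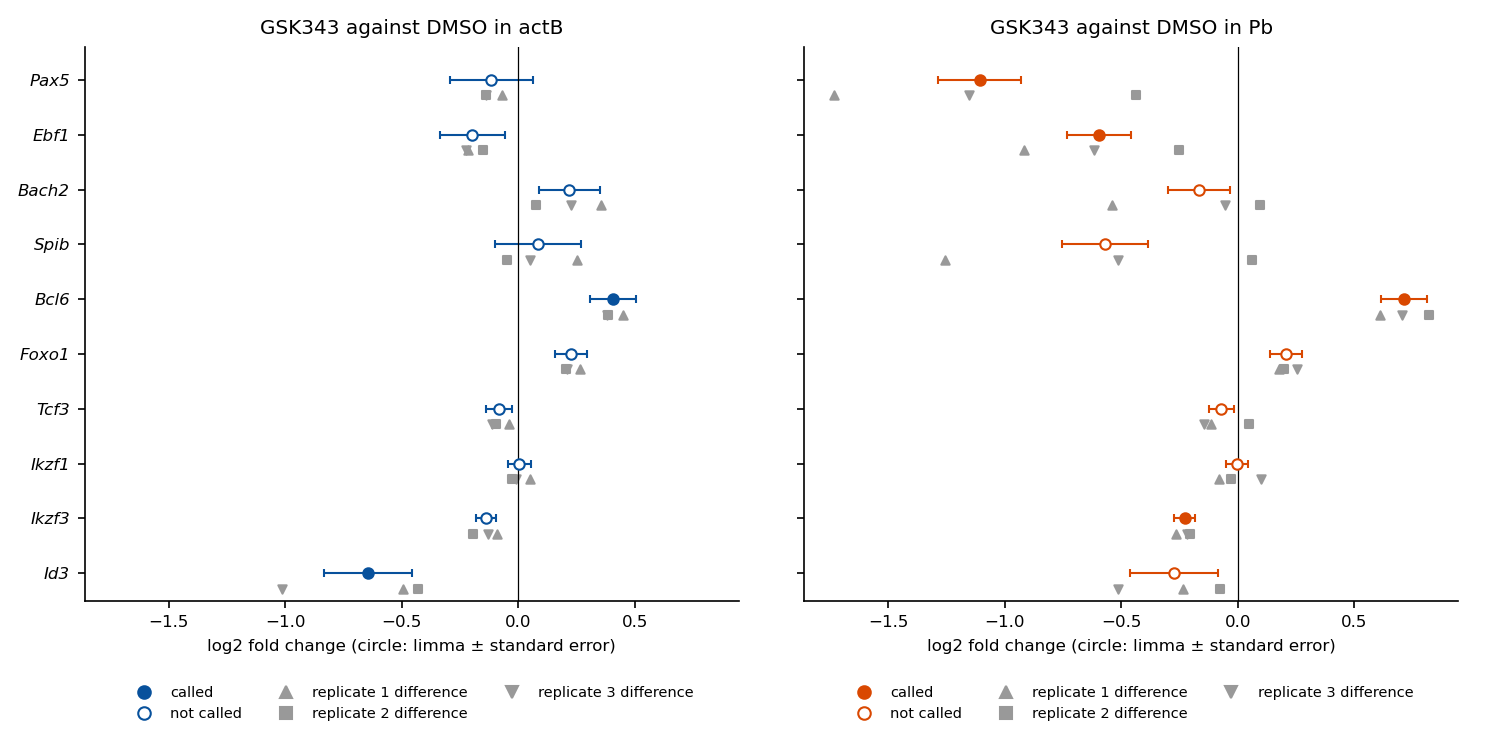
Log2 fold change of the 10 genes with GSK343 against DMSO (horizontal axis) in actB and in Pb, as the limma estimate ± SE (circles, filled for adjusted p under 0.05) and as the difference of log2(RPKM + 0.25) between libraries of the same replicate number (gray symbols). *Bcl6* lies right of 0 in both panels (0.41 and 0.71), *Pax5* far left in Pb alone (-1.11, against -0.12 in actB), and replicate 2 is nearest to 0 for *Pax5* and *Ebf1* in Pb.

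The difference of the GSK343 effects between Pb and actB was tested as an interaction. None of the 10 genes was called by limma, where 0.248% of all genes tested were called, and 3 of the 10 were under 0.05 before adjustment (*Pax5*, *Spib*, and *Bcl6*), as were 1017 of the 11299 genes tested. None was called by edgeR on the recovered reads either, while edgeR blocked on replicate number called *Pax5* (-0.94, adjusted p = 0.0172). For *Pax5* the effect was lower in Pb by 0.99 ± 0.25 (adjusted p = 0.163) and for *Spib* by 0.65 ± 0.26 (adjusted p = 0.458). Without Pb GSK343 replicate 2, both passed the test, *Pax5* at -1.23 (adjusted p = 0.0146) and *Spib* at -0.91 (adjusted p = 0.0479). For *Bcl6* the difference was 0.31 ± 0.14 (adjusted p = 0.551), and for *Foxo1*, *Ikzf1*, and *Tcf3* it was within 0.018 of 0.

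Genes that act with or under the 10 factors were counted in lists. Of all genes tested, 40.9% were called higher and 36.3% lower in actB DMSO against nB, and 27.3% higher and 42.4% lower in Pb DMSO against actB DMSO, and the counts of each list stand beside these shares. Of 14 genes that PAX5 and EBF1 activate, which encode parts of the B cell receptor and its coreceptors and signaling proteins, 12 were lower in actB DMSO than in nB and 2 were not called (median log2 fold change -0.96), and 12 were lower and 1 higher in Pb DMSO than in actB DMSO (median -1.6). *Cr2* (the complement receptor CD21) fell by 4.04 ± 0.11 on entry into actB, *Fcer2a* (the IgE receptor CD23) by 2.28 ± 0.28, and *Blk* (a SRC family kinase) by 2.13 ± 0.1. From actB to Pb, *Fcer2a* fell by 3.86 ± 0.25, *Cd22* (an inhibitory coreceptor) by 3.62 ± 0.21, and *Ciita* (the MHC class II transactivator) by 3.51 ± 0.14. *Blnk*, which encodes a signaling adaptor and was chosen after its values were seen, was the gene that rose, by 0.49 ± 0.05.

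With GSK343 in Pb, 5 of the 14 were lower and 1 was higher (median -0.41, against 0.0031 over all genes), and in actB 1 was lower and 1 higher (median -0.069). Of all genes tested, 5.0% were called lower and 7.9% higher in Pb, and 2.16% lower and 8.2% higher in actB. In Pb, *Fcer2a* fell by 1.56 ± 0.25 (5.13 ± 0.63 to 1.66 ± 0.71 RPKM, SD, n = 3), *Bank1*, which encodes a scaffold of B cell receptor signaling, by 1.28 ± 0.14 (8.88 ± 1.01 to 3.56 ± 0.92 RPKM), and *Cr2* by 0.67 ± 0.1. The others called lower, named after their values were seen, were *Ms4a1* (CD20, -0.63 ± 0.11) and *Cxcr5* (a chemokine receptor, -0.43 ± 0.13), the last of which lost its call without any 1 Pb library other than GSK343 replicate 2 (adjusted p of 0.0587 to 0.171). *Vpreb3* was higher in both cell types (0.37 ± 0.11 in Pb and 0.39 ± 0.11 in actB), and *Fcer2a* was lower in actB too (-0.91 ± 0.25). The calls for *Vpreb3* were lost without any 1 library other than DMSO replicate 2 (adjusted p of 0.0516 to 0.142 in Pb and 0.0706 to 0.128 in actB), and that for *Fcer2a* in actB without any other than GSK343 replicate 2 (0.0679 to 0.133). In each cell type, the call for *Vpreb3* was also lost in 6 of 13 other settings. Among them were median scaling (adjusted p = 0.0614 in Pb and 0.0741 in actB) and edgeR (0.0518 and 0.06).

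**Figure D4:**
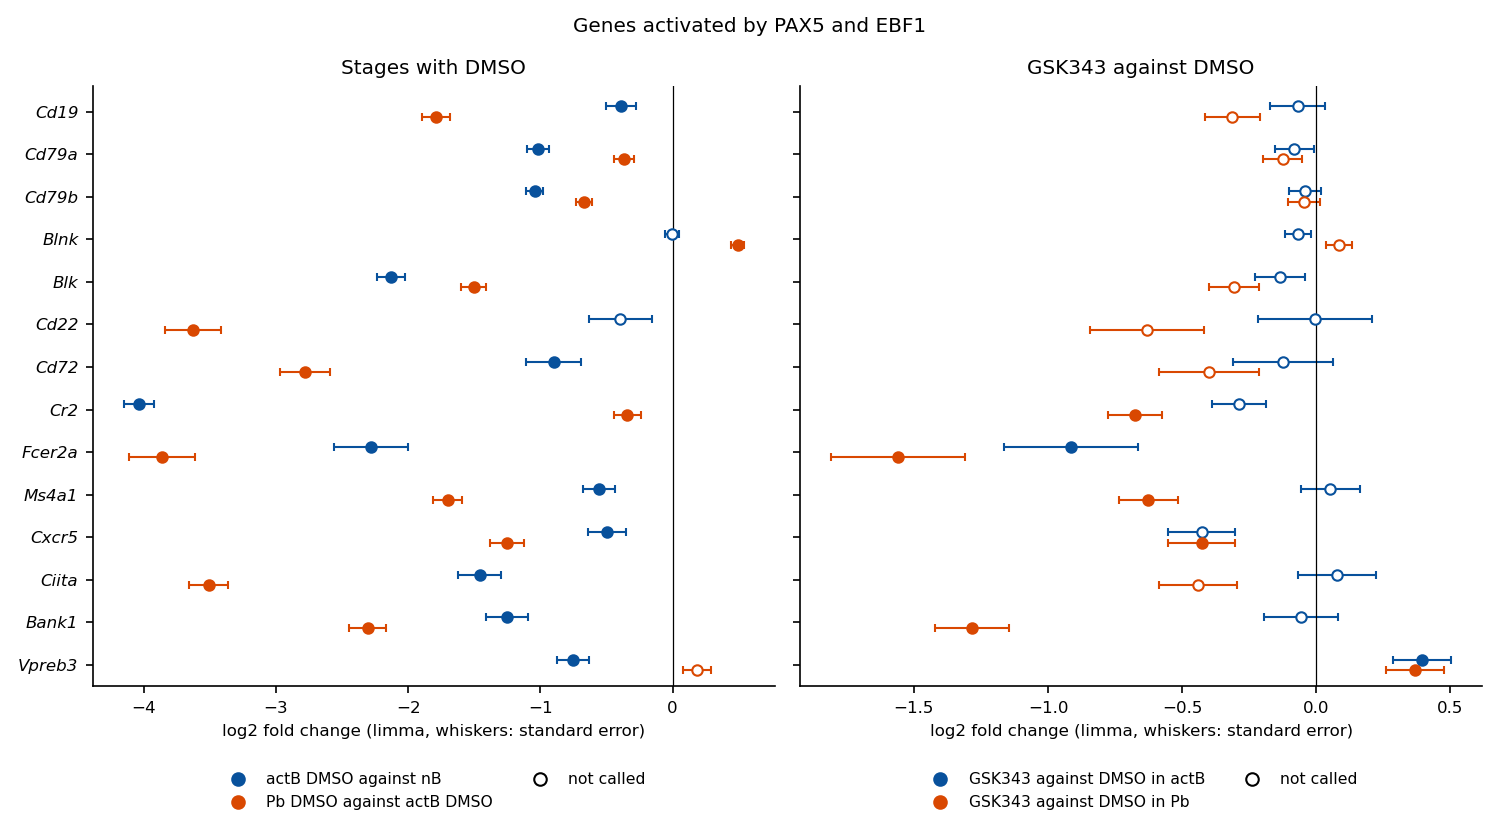
Log2 fold change (horizontal axis, limma estimate ± SE) of the 14 genes activated by PAX5 and EBF1, between stages with DMSO in the left panel and with GSK343 against DMSO in the right panel, filled for adjusted p under 0.05. Most points lie left of 0 between stages, and with GSK343 the points of Pb reach from *Fcer2a* at -1.56 to *Vpreb3* at 0.37.

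Of 8 genes that PAX5 represses, 5 were higher and 2 lower in actB DMSO than in nB, and 5 were higher and 2 lower in Pb DMSO than in actB DMSO. *Notch1*, a receptor of T lineage fate, rose by 1.95 ± 0.05 in actB. The genes that were lower there were *Ccl3*, a chemokine gene (-2.85 ± 0.3), and *Csf1r*, which is also a myeloid marker and went from 9.16 and 16.8 RPKM in nB to at most 0.0353 RPKM in actB DMSO. *Csf1r* passed the filter on low values through nB alone, so its lower value was largely set in advance. In Pb, *Cd28*, a costimulatory receptor also found on plasma cells, rose by 3.54 ± 0.25 and *Jchain*, of secreted IgM and IgA, by 3.24 ± 0.1, while *Flt3*, a cytokine receptor of progenitors, fell by 2.55 ± 0.24. With GSK343, *Ccl3* rose by 2.54 ± 0.27 in actB and 2.77 ± 0.27 in Pb. *Emb*, a cell adhesion gene, rose by 0.74 ± 0.13 in Pb and *Jchain* by 0.37 ± 0.1 in actB, where its call was lost without any 1 of 4 libraries, namely DMSO replicates 2 (adjusted p = 0.0669) and 3 (0.0591) and GSK343 replicates 2 (0.0502) and 3 (0.104).

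Targets of FOXO1 fell with it on activation. Of 12 listed, 10 were tested, and all 10 were lower in actB DMSO than in nB (36.3% of all genes), with a median log2 fold change of -1.98. Among them, *Il7r*, named after its values were seen, was at 2.41 to 3.16 RPKM in nB and at most 0.658 in actB DMSO. It would not have passed the filter on low values without nB, so its fall was largely set in advance. *S1pr1*, the receptor for exit from lymphoid organs, fell by 5.02 ± 0.12, *Klf2*, a quiescence factor, by 3.05 ± 0.2, and *Irs2*, an adaptor of insulin signaling, by 2.57 ± 0.15. From actB to Pb, 6 were lower and 3 higher, and among those that fell were *Klf2* (-3.25 ± 0.18) and the homing receptor gene *Ccr7* (-2.77 ± 0.33). With GSK343, *Irs2* rose in actB (0.71 ± 0.14) and in Pb (0.68 ± 0.14), *S1pr1* rose in actB (0.57 ± 0.11), and *Cdkn1b*, which encodes the cell cycle inhibitor p27, fell in Pb (-0.59 ± 0.1). *Cdkn1b* was also called lower in actB (-0.37 ± 0.1), a call lost without DMSO replicates 1 or 2 or GSK343 replicates 1 or 3 (adjusted p of 0.0788 to 0.117).

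Family members and partners of the 10 genes were also measured. Among E proteins and Id factors, *Tcf4* (E2-2) was higher in actB DMSO than in nB (0.59 ± 0.07), *Tcf12* (HEB) was higher in Pb DMSO than in actB DMSO (0.55 ± 0.06), and *Id2* was lower there (-2.13 ± 0.14). With GSK343, *Id2* rose in actB (0.77 ± 0.14) and in Pb (0.54 ± 0.14), and *Tcf12* rose in both (0.37 ± 0.06 and 0.27 ± 0.06). *Id3* was called lower in actB (adjusted p = 0.0499, with the limits given above). In Pb it was not called, though lower in 3 of 3 pairs. The *Id3* effect was not called different between the cell types (0.37 ± 0.27, limma interaction, adjusted p = 0.827). In Pb, the call for *Id2* was lost without any 1 library other than GSK343 replicate 1 (adjusted p of 0.0643 to 0.0904), and that for *Tcf12* without replicate 1 or 3 of either treatment (0.051 to 0.0613). In the FoxO family, *Foxo3* and *Foxo4* fell with *Foxo1* in actB (-1.02 ± 0.11 and -1.16 ± 0.06) and rose from actB to Pb (0.72 ± 0.1 and 0.47 ± 0.05). *Ikzf5*, the remaining Ikaros family gene that was tested, rose from actB to Pb (0.39 ± 0.09).

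Of the partners of SPIB, *Spi1*, which encodes the related factor PU.1, fell by 1.24 ± 0.07 on entry into actB and by 0.46 ± 0.06 from actB to Pb. In the same step *Irf8* fell by 1.78 ± 0.1 and *Irf4*, which drives plasma cell formation, rose by 1.76 ± 0.06. *Bach1*, the relative of *Bach2*, rose from actB to Pb by 1.89 ± 0.08, and of the small MAF genes, whose products pair with BACH proteins, *Maff* rose by 0.68 ± 0.18 and *Mafk* fell by 1.0 ± 0.09. All 8 BCL6 corepressor genes were called in this step (69.7% of all genes), 7 lower (42.4%) and 1 higher (27.3%), with *Mta3* at -2.06 ± 0.1. The largest of the others was *Tbl1xr1*, at -0.76 ± 0.04, and the gene that rose was *Ctbp1*, at 0.28 ± 0.06, named after its value was seen.

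Among 10 other B cell transcription factor genes, 7 were lower and 3 higher in actB DMSO than in nB, and 5 were lower and 2 higher in Pb DMSO than in actB DMSO. Those lower in actB include *Lef1*, named here after its values were seen, at 1.63 to 1.81 RPKM in nB and at most 0.492 in actB DMSO. *Lef1* would not have passed the filter on low values without nB, so its fall was largely set in advance. The largest changes in Pb were those of *Bcl11a* (-2.76 ± 0.12), *Pou2af1* (OBF-1, 1.28 ± 0.05), and *Pou2f2* (OCT-2, -1.2 ± 0.07). With GSK343 in Pb, *Bcl11a* (-0.56 ± 0.12) and *Pou2f2* (-0.45 ± 0.07) fell. *Lef1* was called higher (0.69 ± 0.16), a call lost without any of the DMSO replicates 2 (adjusted p = 0.0547) and 3 (0.0591) and GSK343 replicate 1 (0.0678). Its levels in Pb were low, at 0.471 to 0.658 RPKM with DMSO and 0.887 to 1.12 with GSK343. The log2 value ranged from 0.39 to 0.91 over 12 other settings. In actB, *Runx1* rose by 0.34 ± 0.06.

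Of 6 plasma cell regulators measured, 5 were higher in actB DMSO than in nB and 5 were higher and 1 lower in Pb DMSO than in actB DMSO. *Prdm1*, the gene of BLIMP-1, rose by 4.42 ± 0.08 on entry into actB. From actB to Pb, *Creb3l2* and *Xbp1*, factors of the secretory program, rose by 2.95 ± 0.07 and 2.33 ± 0.06 and *Ell2*, an elongation factor used for secreted immunoglobulin, by 2.13 ± 0.08, while *Zbtb20*, named after its value was seen, fell by 1.28 ± 0.17. With GSK343 in Pb, *Irf4* was called lower (-0.25 ± 0.06), a call lost without DMSO replicates 2 (adjusted p = 0.0798) or 3 (0.0566) or GSK343 replicates 1 (0.0903) or 3 (0.0674). In actB, *Creb3l2* (0.33 ± 0.07) and *Ell2* (0.27 ± 0.08) were called higher. The call for *Creb3l2* was lost without DMSO replicate 3 (adjusted p = 0.0648) or GSK343 replicate 3 (0.0637), and that for *Ell2* without DMSO replicates 2 or 3 or GSK343 replicates 1 or 3 (0.104 to 0.138). The call for *Ell2* was also lost in 6 of 13 other settings, among them median scaling (0.0768) and edgeR (0.0721).

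Across the 14 libraries, the genes with the pattern most like each factor were found by Pearson correlation of log2(RPKM + 0.25), which is given as a description, since the libraries share 5 groups that set most of the variation. *Pax5* was most like *Ablim1* (r = 0.996) and *Ms4a1* (r = 0.996), *Spib* most like *Ciita* (r = 0.998) and *Lcp1* (r = 0.998), and *Ebf1* most like *Stat6* and *Ifngr2* (both r = 0.997). *Bach2* was most like *Map7* (r = 0.997), *Bcl6* most like *Lbh* (r = 0.996), *Foxo1* most like *Slc12a7* (r = 0.993), *Ikzf1* most like *Actr2* (r = 0.996), *Ikzf3* most like *Crlf3* (r = 0.996), and *Id3* most like *Plekha2* (r = 0.989). *Tcf3*, which varied least, had the weakest best match (*Atp6v1f*, r = 0.934). Among the factors themselves, r was highest for *Pax5* and *Spib* (0.99) and lowest for *Bach2* and *Tcf3* (0.182), and each of the 9 pairs with *Tcf3* was at 0.651 or less.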

How the data were processed

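PolyA RNA was sequenced from 15 libraries of 5 groups. Per the study's methods and the labels, the authors aligned paired-end reads of a stranded kit to mm9 with TopHat2 and counted them over the exons of Entrez genes. Whether the counting used strand is not given in the sources used here. The values deposited by the authors are RPM (reads per 1000000 counted reads), since each column sums to 1000000, and all were whole multiples of the value of 1 read within 0.0006 RPM, so whole reads were recovered. Here RPM was divided by the deposited gene length to give RPKM.

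Genes with at least 1 RPKM in at least 3 of the 15 columns (11299) were tested on log2(RPKM + 0.25) with limma 3.58.1 (R 4.3.3, mean trend, Benjamini-Hochberg adjustment, two-sided), all groups in 1 model, and called at an adjusted p under 0.05. As nB holds 3 columns, a gene at 1 RPKM in nB alone could pass the filter, and could hardly come out other than lower in culture. Fold changes are on that scale, which understates the change of low genes. The test was checked on simulated data for the comparison of Pb DMSO with actB DMSO only. The simulation had the same dispersion for every gene and no other difference between groups, so the check does not cover the GSK343 comparisons. Libraries held 19421830 to 26307413 reads. Another 92 identifiers without a symbol stayed out of the tests. The 2 nearly identical nB libraries were averaged as 1 sample. The study calls its replicates biological. Whether each came from its own mouse is not given in the sources used here, so p-values measure the spread between these samples.

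Whether the replicate numbers in the labels pair the cultured samples was looked at through the deviations from the group means. These correlated at 0.158 to 0.502 between libraries numbered 1, at 0.435 to 0.713 between those numbered 2, and at 0.219 to 0.356 between those numbered 3 (6 pairs each). Between different numbers they correlated at -0.603 to 0.37 (36 pairs). Only number 2 lay apart from that range, so pairing of all numbers and a shift shared by the number 2 libraries cannot be told apart. Alternatives were other pseudocounts, filters, and scalings, fewer groups, all 15 columns, the replicate block, edgeR 4.0.16 on the recovered reads, and each library left out. After the data were seen, edgeR with the block and a fit without all number 2 cultured libraries were added. The 10 genes and all lists were chosen with earlier results of these data known. All 10 genes are named, and of each list at most the 3 called genes with the largest change and a group mean of 1 RPKM or more, with exceptions stated. The values of 1 listed gene are not reported here. *Irf4* and *Xbp1* are in 2 lists each. Promoters were searched in the RefSeq table of GRCm38.p6, and their coordinates were not mixed with mm9.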

Additional observations from a re-analysis of the deposited data

Results flagged for a closer look

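*Bank1*, which encodes a scaffold of B cell receptor signaling and is among the genes activated by PAX5 and EBF1, responded differently to GSK343 in the 2 cell types. The log2 effect in Pb minus that in actB was -1.23 ± 0.2 (SE; limma interaction, adjusted p = 0.033). Its level was 44.8 ± 2.75 RPKM with DMSO and 43.0 ± 2.53 with GSK343 in actB (SD, n = 3), and 8.88 ± 1.01 and 3.56 ± 0.92 in Pb. The Pb libraries lay at 7.97 to 9.96 RPKM with DMSO and 2.66 to 4.49 with GSK343 and did not overlap. With 1 library left out, the difference ranged from -1.4 to -1.05 and was called in 2 of 12 sets (adjusted p of 0.0065 to 0.123). Among the 13 other settings it was called in 11, and not without a filter on low values (adjusted p = 0.0558) or with only the groups compared (0.0609). The stimulation label of the Pb GSK343 libraries names Il6 where the treatment protocol and the methods give IL5, and the part of this in the value was not tested.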

How the results depend on the processing

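The number of the 10 genes called with GSK343 in actB, 2, was 1 with a pseudocount of 0.05, with no filter, with quantile normalization, and with only the groups compared. It was 3 with median scaling, in edgeR without the block, and without all number 2 cultured libraries. With all 15 columns it was 4, in edgeR with the replicate block 5, and with 1 library left out 0 to 2. For the difference between Pb and actB, 0 became 1 in edgeR with the replicate block, 2 without all number 2 cultured libraries, and 0 to 2 with 1 library left out. With the replicate block in limma, 3 of the 10 were called in actB, 5 in Pb, and 0 in the difference, and 2368, 2740, and 83 of all genes against 1170, 1458, and 28. In edgeR with the block these were 3005, 3061, and 293, and with only the groups compared 386 in actB and 4 in the difference. Besides the blocked values given in the text, the limma block changed no call of the 10 genes. Calls of other listed genes with GSK343 were also lost in some of 13 other settings. In actB these were *Fcer2a*, *Jchain*, and *Cdkn1b* (3 settings each) and *Creb3l2*, *Id2*, and *Runx1* (1 each). In Pb they were *Cxcr5* (4), *Id2* (2), *Lef1* (2 of 12), and *Irf4*, *Tcf12*, and *Bcl11a* (1 each).

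Signs turned in 36 values, none of them called in the reported fit or in the setting that turned them, the largest being 0.0533 in size. *Ikzf1* with GSK343 in actB was -0.0284 with median scaling, -0.0273 and -0.0299 in edgeR with TMM and RLE, -0.0411 in edgeR with the block, and -0.0164 to 0.042 with 1 library left out. In Pb it was 0.0098 without number 2 and -0.0322 to 0.0286 with 1 library left out. For the difference between cell types, *Foxo1* was 0.0106, 0.0071, 0.0097, and 0.0195 and *Ikzf1* 0.0205, 0.0141, 0.017, and 0.0275 in those 4 settings (-0.0693 to 0.0444 and -0.0446 to 0.0236 with 1 library left out). *Tcf3* was -0.0072 with quantile normalization, -0.0533 without number 2, and -0.0194 to 0.0649 with 1 library left out. In Pb GSK343 against actB GSK343, *Tcf3* was -0.0211 without number 2. The causes were not tested.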
